A study of Mus musculus with 10 samples.

Results

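Fatty acid oxidation and ketone body genes were examined in RNA sequencing of mouse livers with and without Ndrg3, a member of the N-myc downstream-regulated gene family. The 39 genes were taken by symbol from a list of the pathway that uses no measured value, though it was drawn up with earlier results of these data known, and all 39 were found among the 24052 gene symbols with counts. They comprise 1 transcriptional regulator, 17 genes of the mitochondrial pathway, 9 of the peroxisomal pathway, 3 whose products work in both compartments, 4 acyl-CoA synthetases, 4 acyl-CoA thioesterases and 1 enzyme of ketone body metabolism. Ketogenesis is therefore represented by *Bdh1* alone, and the enzymes before it in that pathway were not analysed here. The data comprise 10 livers with 1 library each, 5 labelled wild-type and 5 labelled Ndrg3 LKO. All mice were labelled C57BL/6 (the floxed line was crossed to C57BL/6N) and fed ad libitum, and male mice were the rule in the study. They were 8 to 10 weeks old, or 10 to 12 weeks by another description of the same experiment. In Ndrg3 LKO mice exon 4 of floxed *Ndrg3* was removed by a Cre recombinase under the albumin promoter, which drives expression in hepatocytes. Deletion in other liver cells was not measured. The wild-type mice were littermates, and whether they carried floxed alleles, or which livers shared a litter, was not given.

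Fatty acids are first joined to coenzyme A by acyl-CoA synthetases. Long chains then enter mitochondria through the carnitine shuttle and are shortened step by step by acyl-CoA dehydrogenases, enoyl-CoA hydratases, hydroxyacyl-CoA dehydrogenases and thiolases, and in the fasted liver much of the acetyl-CoA becomes ketone bodies. Peroxisomes take very long and branched chains and bile acid intermediates through ABC transporters, use acyl-CoA oxidases in place of dehydrogenases, and pass shortened chains on as carnitine esters. Many genes of both pathways are targets of PPARα, the nuclear receptor for fatty acids that *Ppara* encodes.

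The counts summed to between 20872262 and 24747870 in the wild-type libraries and to between 23474693 and 30450057 in the Ndrg3 LKO libraries. All 39 members had at least 1 CPM (counts scaled to a common library total) in at least 5 livers, as did 11208 genes in all, and the lowest member count in any liver was 26. *Ndrg3* itself was measured at 15.9 to 21.9 CPM in wild-type and 7.07 to 9.16 CPM in Ndrg3 LKO livers (log2 fold change -1.20, SE 0.129, edgeR adjusted p = 3.87e-05), counted over the whole gene and not exon 4 alone. Ndrg3 LKO liver 5 stood apart from the other 4 knockout livers on the first principal component of all genes tested, at 14.1 against 51.1 to 56.6, with the wild-type livers between -49.9 and -43.0. The paper's legend for gene expression in these livers gives 5 wild-type and 4 knockout livers. It does not say which knockout liver was left out. The summed CPM of 9 hepatocyte markers was 132518 to 163858 in wild-type livers, 40610 to 52133 in Ndrg3 LKO livers 1 to 4 and 159792 in liver 5. Taken singly, 5 of these 9 markers fell and 0 rose, or 7 fell when liver 5 was left out. Of all genes tested 23.0% fell and 25.6% rose, or 27.2% and 28.4% without liver 5. Of 10 hepatocyte and 6 Kupffer cell markers listed, 9 and 5 were found among the gene symbols. All 5 Kupffer cell markers, 4 of 6 stellate cell markers and 4 of 5 endothelial markers rose, with summed CPM of 66.3 to 172 against 152 to 493, 108 to 154 against 234 to 303, and 44.6 to 57.9 against 85.0 to 126. Of 5 cholangiocyte markers 1 rose and 1 fell (summed CPM of all 5, 38.4 to 71.6 against 50.9 to 219). Of the lymphocyte and adipocyte lists 1 marker each could be tested and rose. Summed over all 5 lymphocyte markers, tested or not, the CPM was 2.69 to 4.29 against 4.0 to 12.8. Over all 3 adipocyte markers it was 4.44 to 17 against 8.26 to 61.6, with liver 5 the highest. Neither of the 2 neutrophil markers found passed the filter. In bulk tissue, fewer cells of a type and less RNA per cell cannot be told apart, and the part of these cell types in the differences below was not tested. For members, values with and without Ndrg3 LKO liver 5 are given where it changed a call, and for other lists the counts.

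Of the 39 members, 5 were higher and 8 lower in Ndrg3 LKO livers by edgeR's quasi-likelihood test with a Benjamini-Hochberg adjusted p under 0.05, and 26 did not pass. Of all genes tested, 25.6% were called higher and 23.0% lower, beside 12.8% and 20.5% of the members. The 5 higher genes were *Abcd2*, *Acot2*, *Acsl4*, *Bdh1* and *Hadhb*, and the 8 lower were *Acsl1*, *Acox2*, *Decr2*, *Ppara*, *Acaa1a*, *Cpt1a*, *Eci2* and *Acads*. The median log2 fold change of the members was 0.039, beside 0.031 for all genes tested. Without Ndrg3 LKO liver 5 the counts were 7 higher and 12 lower, against 28.4% and 27.2% of 11446 genes. *Acadvl* and *Hadha* then joined the higher genes, *Cpt2*, *Hadh*, *Acaa1b*, *Hsd17b4* and *Acsl3* the lower ones, and *Eci2* was no longer called. For 3 members every knockout liver lay above every wild-type liver (*Abcd2*, *Acsl4* and *Bdh1*) and for 6 every knockout liver lay below (*Ppara*, *Cpt1a*, *Acads*, *Acox2*, *Decr2* and *Acsl1*), as was the case for 15.6% and 15.9% of all genes tested.

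The scale bears on these counts. When library sizes were used without TMM, the trimmed mean adjustment between libraries, the all-gene median moved from 0.031 to 0.56 (log2), and 51.9% of genes were called higher and 9.01% lower. On that scale 18 members were higher and 4 lower, *Cpt1a* and *Acaa1a* were no longer called, and *Acads* (0.12) and *Eci2* (0.032) turned positive. *Ppara*, *Acox2*, *Decr2*, *Acsl1*, *Abcd2*, *Acsl4* and *Bdh1*, 7 of the 13 called members, passed the threshold in the same direction under all 19 alternatives that rescaled or refitted the data.

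**Figure D1:**
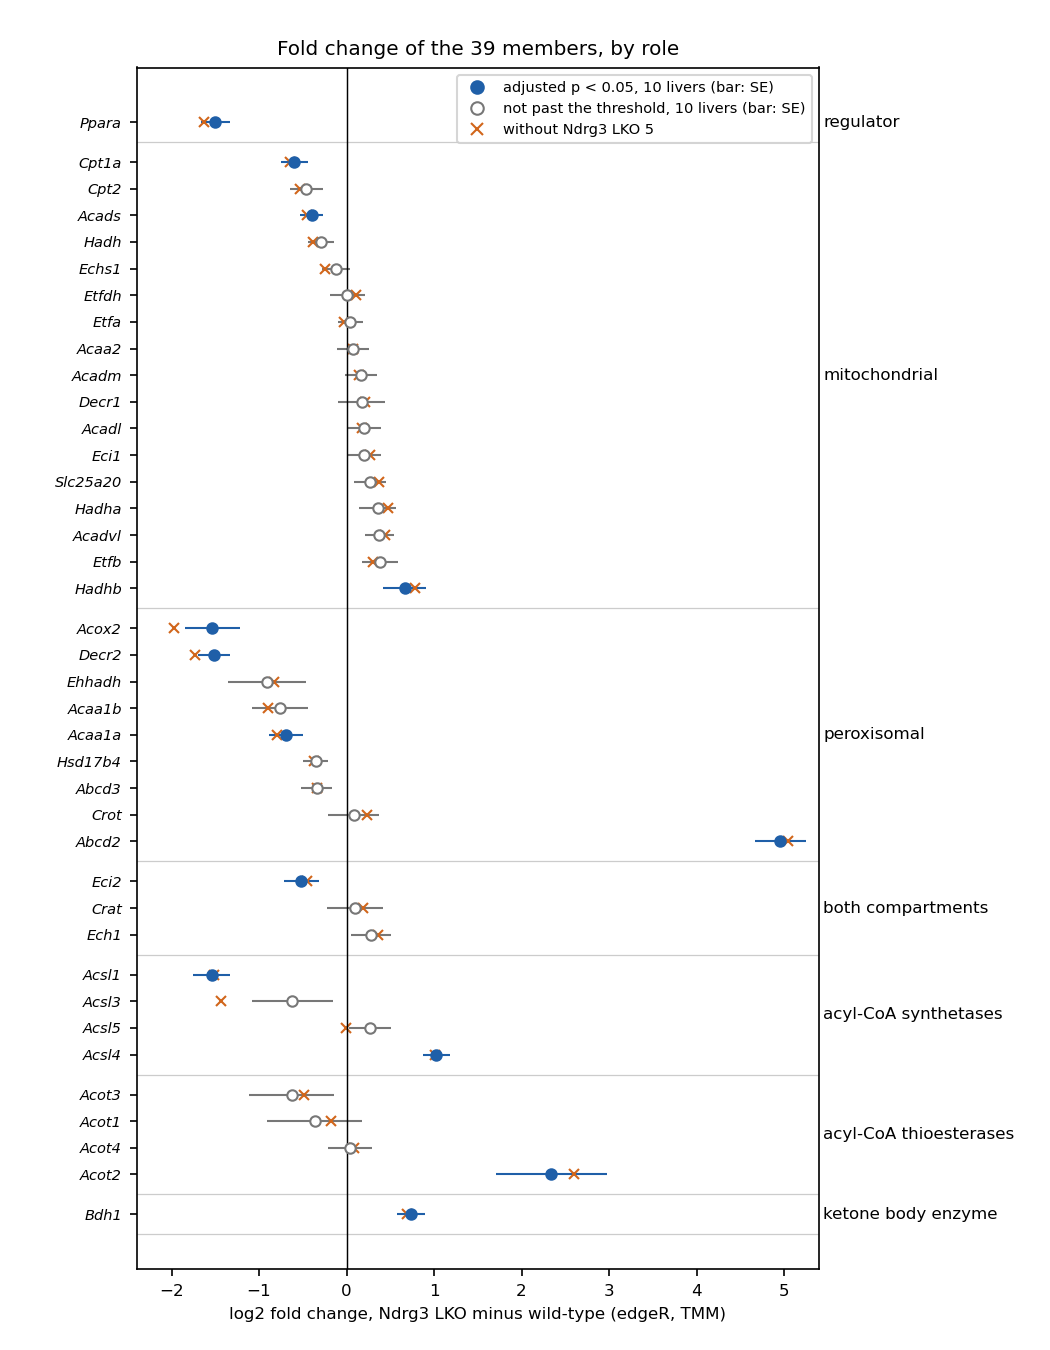
Log2 fold change of each of the 39 members (x axis, Ndrg3 LKO minus wild-type, edgeR with TMM) by role (y axis), with bars for the standard error, filled points for adjusted p under 0.05 in all 10 livers and crosses for the fit without Ndrg3 LKO liver 5. The peroxisomal genes lie mostly left of 0 apart from *Abcd2* at 4.96, the mitochondrial genes lie near 0, and *Acads* and *Eci2* turn positive when library sizes are not adjusted.

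*Ppara* was lower in every Ndrg3 LKO liver. Its level was 368, 363, 314, 331 and 297 CPM in wild-type livers 1 to 5 and 88.5, 132, 104, 111 and 158 CPM in Ndrg3 LKO livers 1 to 5. The mean fell from 335 ± 30.8 to 119 ± 26.8 CPM (SD, n = 5), a log2 fold change of -1.50 with a standard error of 0.168 and an adjusted p of 4.82e-05 (edgeR). The groups did not overlap, and the highest knockout liver was liver 5. Of 11 partners and relatives of PPARα, 1 was higher and 0 lower, with a median log2 fold change of 0.11, beside 25.6% and 23.0% of all genes tested. Without Ndrg3 LKO liver 5, 2 were higher. The gene with all livers that rose was *Ppargc1a*, which encodes the coactivator PGC-1α, from 9.72 to 14.0 CPM in wild-type livers to 41.3 to 140 CPM in Ndrg3 LKO livers (log2 fold change 2.76, SE 0.327, edgeR adjusted p = 7.04e-05). *Rxra*, which encodes the receptor that pairs with PPARα and was named after its values were seen, did not pass the test, at 316 to 489 CPM against 344 to 497 CPM.

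Of the 4 acyl-CoA synthetases 1 fell, 1 rose and 2 did not pass the test. *Acsl1*, the main long-chain synthetase of liver, was at 2171, 2044, 2089, 1401 and 1842 CPM in wild-type livers 1 to 5. In Ndrg3 LKO livers 1 to 5 it was at 593, 863, 441, 806 and 575 CPM, all below the lowest wild-type liver. The log2 fold change was -1.54 (SE 0.216, edgeR adjusted p = 2.08e-04), the largest fall among the called members, if only just beyond *Acox2* at -1.53. Without Ndrg3 LKO liver 5 it was -1.51, and *Acox2*, *Decr2* and *Ppara* fell further. *Acsl4*, whose enzyme favours arachidonic acid, rose from 66.0, 88.2, 94.6, 80.6 and 94.3 CPM to 161, 210, 181, 135 and 177 CPM (log2 fold change 1.03, SE 0.151, edgeR adjusted p = 2.77e-04). Here too the groups did not overlap. *Acsl5*, an enzyme of mitochondrial and endoplasmic reticulum membranes, did not pass the test, with 284 to 386 CPM in wild-type livers, 281 to 440 CPM in Ndrg3 LKO livers 1 to 4 and 670 CPM in liver 5. It was called higher on unadjusted library sizes (log2 fold change 0.73) and on quantile-normalized values (0.46). *Acsl3*, an enzyme tied to lipid droplets, was at 15.9 to 24 CPM in wild-type livers and at 10.8, 4.99, 6.85, 5.87 and 34.3 CPM in Ndrg3 LKO livers 1 to 5. Liver 5 was thus above every wild-type liver and the other 4 were below them all. With all 10 livers the log2 fold change of *Acsl3* was -0.62 (edgeR adjusted p = 0.287), and without liver 5 it was -1.44 (edgeR adjusted p = 2.22e-04).

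As a share of the summed CPM per kilobase of exon over the 4 synthetases, *Acsl1* took 59.8% to 67.2% in wild-type livers and 20.8% to 43.4% in Ndrg3 LKO livers. *Acsl5* took 27.1% to 32.4% and 40.1% to 64.8%, and *Acsl4* took 3.57% to 6.02% and 11.2% to 20.7%. These shares rest on the exon length used, 9449 bases for all annotated exons of *Acsl1*, so which synthetase led in a liver is not read from them. A share within a family shows unequal change of its members and not which of them changed.

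**Figure D2:**
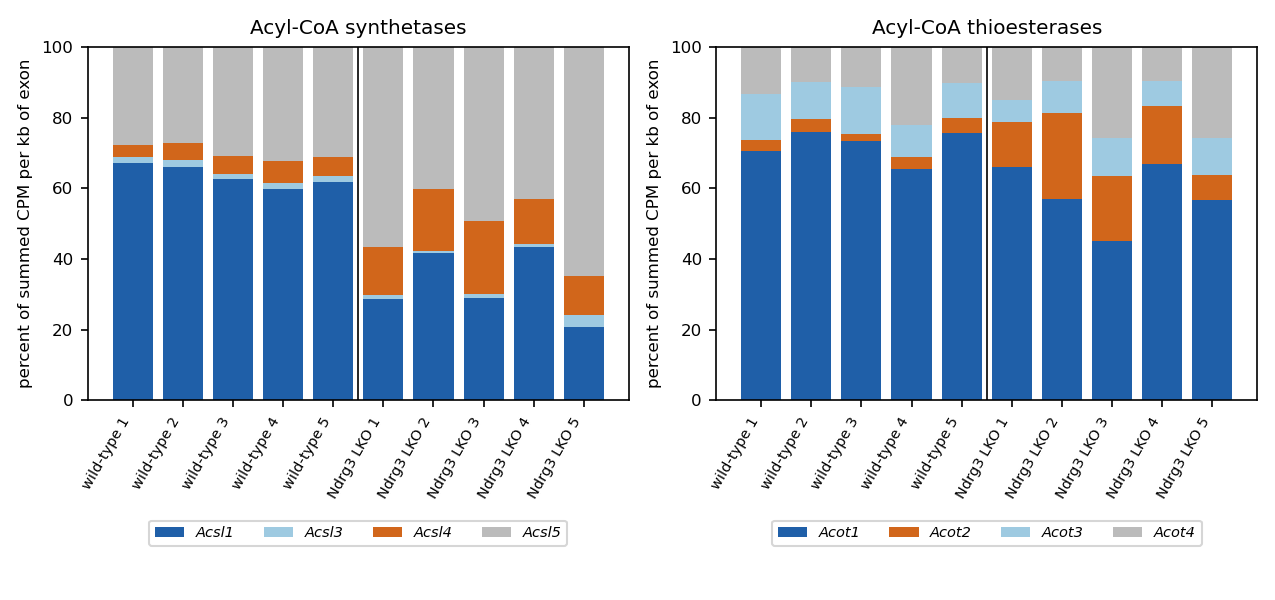
Share of each family member in the summed CPM per kilobase of exon (y axis, percent) in each of the 10 livers (x axis), for 4 acyl-CoA synthetases and 4 acyl-CoA thioesterases, with 1 stacked bar per liver. *Acsl1* holds 59.8% to 67.2% in wild-type and 20.8% to 43.4% in Ndrg3 LKO livers, and *Acot2* holds 2.01% to 4.38% and 6.92% to 24.3%.

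Of the carnitine shuttle, the entry step was lower. *Cpt1a*, whose enzyme forms acylcarnitines at the outer mitochondrial membrane and limits the rate of entry, was at 595, 524, 449, 562 and 501 CPM in wild-type livers 1 to 5. In Ndrg3 LKO livers 1 to 5 it was at 271, 430, 334, 323 and 382 CPM, each below the lowest wild-type value. The log2 fold change was -0.60 (SE 0.156, edgeR adjusted p = 0.00812). On unadjusted library sizes it was -0.07 and on quantile-normalized values -0.32, and the call was lost on both scales. *Cpt2*, which turns acylcarnitines back into acyl-CoA inside, was at 252, 298, 297, 183 and 294 CPM in wild-type livers and 199, 169, 137, 235 and 225 CPM in Ndrg3 LKO livers. Its groups overlapped through wild-type liver 4, and its log2 fold change of -0.46 did not pass (SE 0.188, edgeR adjusted p = 0.0615), but it did without Ndrg3 LKO liver 5 (0.0332), without Ndrg3 LKO liver 4 (0.049) or without wild-type liver 4 (0.019). *Slc25a20*, the carrier that exchanges carnitine and acylcarnitine across the inner membrane, was at 163 to 254 CPM and 181 to 322 CPM and did not pass (log2 fold change 0.27, edgeR adjusted p = 0.243). Ndrg3 LKO livers 1 to 4 lay above every wild-type liver. The gene was called higher on unadjusted library sizes (0.84) and on quantile-normalized values (0.54).

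The acyl-CoA dehydrogenases, which start each round of mitochondrial oxidation and differ in the chain length they accept, were not called with TMM except for the short-chain enzyme. *Acadl*, the long-chain dehydrogenase, was at 305, 319, 397, 252 and 302 CPM in wild-type livers and 359, 381, 234, 458 and 382 CPM in Ndrg3 LKO livers. *Acadm*, the medium-chain dehydrogenase, was at 487, 513, 634, 328 and 469 CPM and at 537, 623, 433, 569 and 570 CPM. Neither pair of groups was separated, and the log2 fold changes were 0.20 (SE 0.188) and 0.17 (SE 0.182), with edgeR adjusted p of 0.389 and 0.467. On quantile-normalized values limma called both higher, at 0.45 and 0.48, as well as *Acadvl* at 0.85, and without TMM *Acadl* (0.73), *Acadm* (0.70) and *Acadvl* (0.93) were called higher too. *Acadvl*, the very long-chain dehydrogenase, was at 600 to 816 CPM in wild-type livers and 752 to 1135 CPM in Ndrg3 LKO livers. Of the 5 knockout livers 4 were above every wild-type liver, and the log2 fold change was 0.38 with all livers (edgeR adjusted p = 0.0725) and 0.44 without liver 5 (edgeR adjusted p = 0.0212). *Acads*, the short-chain dehydrogenase, fell from 233 to 319 CPM to 183 to 231 CPM without overlap (log2 fold change -0.40, SE 0.132, edgeR adjusted p = 0.0257). It was called in 12 of 19 alternatives, was lost without any 1 of wild-type livers 2 and 5 and Ndrg3 LKO livers 1 and 3, was lost at -0.11 on quantile-normalized values and turned to 0.12 on unadjusted library sizes.

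*Hadha* and *Hadhb* encode the α and β subunits of the mitochondrial trifunctional protein, which carries out the later steps on long chains. In mm9 they lie back to back on chromosome 5, *Hadha* on the minus strand from 30444841 to 30481702 and *Hadhb* on the plus strand from 30481788 to 30511133. The stretch between their annotated starts is shown because both genes are read outward from it. It is 85 bases long, plus strand, 69.4% G or C, with 9 CG pairs.

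chr5:30481703-30481787 (mm9, plus strand): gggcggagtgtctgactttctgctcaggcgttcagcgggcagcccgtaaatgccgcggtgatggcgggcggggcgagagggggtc

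*Hadha* was at 388, 387, 343, 348 and 398 CPM in wild-type livers 1 to 5 and 405, 693, 406, 586 and 292 CPM in Ndrg3 LKO livers 1 to 5. Ndrg3 LKO livers 1 to 4 were above every wild-type liver and liver 5 was below them all. The log2 fold change was 0.35 with all livers (SE 0.214, edgeR adjusted p = 0.186) and 0.48 without liver 5 (edgeR adjusted p = 0.0353). On unadjusted library sizes *Hadha* was called higher at 0.93. *Hadhb* was at 190, 254, 275, 163 and 244 CPM and at 338, 544, 254, 426 and 225 CPM. For both genes Ndrg3 LKO liver 2 was the highest knockout liver, liver 4 the next and liver 5 the lowest. The log2 fold change of *Hadhb* was 0.67 (SE 0.247, edgeR adjusted p = 0.0414). It was called in 8 of 19 alternatives, and among the 10 fits with 1 liver left out it was called only without wild-type liver 3, Ndrg3 LKO liver 3 or Ndrg3 LKO liver 5. The ratio of *Hadhb* to *Hadha* CPM was 0.469 to 0.799 in wild-type and 0.626 to 0.836 in Ndrg3 LKO livers, and these ranges overlapped.

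The remaining mitochondrial members did not pass the test in all 10 livers, and their log2 fold changes ran from -0.29 to 0.38. *Hadh*, the short-chain hydroxyacyl-CoA dehydrogenase, was at 332 to 450 CPM and 273 to 391 CPM (log2 fold change -0.29, edgeR adjusted p = 0.122, and 0.0319 without Ndrg3 LKO liver 5). *Echs1*, the short-chain enoyl-CoA hydratase, differed by -0.12, and *Acaa2*, the mitochondrial thiolase, by 0.07. *Eci1* and *Decr1*, which move or reduce the bonds of unsaturated chains, differed by 0.21 and 0.17. The electron transfer flavoprotein, which takes electrons from the dehydrogenases, had log2 fold changes of 0.05 for *Etfa* and 0.38 for *Etfb*, and its partner dehydrogenase *Etfdh* of 0.01. None of these 8 genes separated the groups. On other scales some were called higher, namely *Acaa2* (0.75 and 0.60), *Etfa* (0.35 and 0.56) and *Etfb* (0.80 and 0.90) on quantile-normalized values and unadjusted library sizes alike, and *Echs1* (0.37), *Eci1* (0.76) and *Decr1* (0.72) on unadjusted library sizes.

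The peroxisomal pathway held larger falls. *Acox2*, the oxidase for branched chains and bile acid intermediates, was at 306, 210, 239, 198 and 173 CPM in wild-type livers 1 to 5. In Ndrg3 LKO livers 1 to 4 it was at 69.1, 51.1, 52.6 and 58.7 CPM, and in liver 5 it was at 158 CPM, close to the lowest wild-type liver. The log2 fold change was -1.53 (SE 0.312, edgeR adjusted p = 0.00197), and -1.97 without liver 5. *Decr2*, the peroxisomal dienoyl-CoA reductase, was at 275, 257, 234, 255 and 243 CPM in wild-type livers and 84.4, 76.9, 71.3, 75.4 and 134 CPM in Ndrg3 LKO livers. Its log2 fold change was -1.51 (SE 0.180, edgeR adjusted p = 7.19e-05), and -1.73 without liver 5. For both genes liver 5 was the highest of the knockout livers, and no knockout liver reached the wild-type range. *Decr1*, the mitochondrial counterpart of *Decr2*, was at 251 to 526 CPM and 235 to 610 CPM.

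The peroxisomal thiolases are encoded by a pair of close relatives on chromosome 9. *Acaa1a* was at 331, 451, 440, 275 and 431 CPM in wild-type livers and 247, 191, 178, 283 and 295 CPM in Ndrg3 LKO livers, a log2 fold change of -0.69 (SE 0.197, edgeR adjusted p = 0.0128). *Acaa1b* was at 1121, 1598, 1477, 897 and 1537 CPM and at 881, 731, 269, 1001 and 1028 CPM, a log2 fold change of -0.76 (SE 0.318). Both genes had 3 of 5 knockout livers below every wild-type liver. *Acaa1b* missed the threshold with all livers (edgeR adjusted p = 0.0652) and passed without Ndrg3 LKO liver 5 (0.0348) or wild-type liver 4 (0.0456). The ratio of *Acaa1b* to *Acaa1a* CPM was 3.26 to 3.57 in wild-type livers and 3.48 to 3.83 in Ndrg3 LKO livers 1, 2, 4 and 5, but 1.51 in liver 3. Of all 100-base stretches in their transcripts, 30.5% of those of *Acaa1b* and 19.7% of those of *Acaa1a* occurred in another gene, so their split is uncertain.

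The bifunctional enzymes carry out the middle steps. *Ehhadh*, the bifunctional enzyme for straight chains, varied widely within groups, at 673, 934, 581, 223 and 1003 CPM in wild-type livers and 412, 513, 106, 524 and 265 CPM in Ndrg3 LKO livers. The log2 fold change of -0.91 had a standard error of 0.445 and did not pass (edgeR adjusted p = 0.110), though without wild-type liver 4 it was -1.14 and passed (0.0367). *Hsd17b4*, the bifunctional enzyme for branched chains, was at 498 to 678 CPM and 406 to 554 CPM, a log2 fold change of -0.35 (edgeR adjusted p = 0.064). It passed without Ndrg3 LKO liver 5 (0.047) or wild-type liver 4 (0.0338). *Crot*, which forms the carnitine esters that leave peroxisomes, differed by 0.08, with 233 to 502 CPM and 194 to 525 CPM.

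The ABC transporters of the peroxisomal membrane went separate ways. *Abcd2*, whose product takes up very long-chain and unsaturated acyl-CoA, was at 1.74, 2.0, 2.62, 2.99 and 1.55 CPM in wild-type livers 1 to 5. In Ndrg3 LKO livers 1 to 5 it was at 53.6, 110, 53.9, 75.9 and 47.2 CPM. This was a 31.1-fold rise and the largest of any member (log2 fold change 4.96, SE 0.293, edgeR adjusted p = 1.29e-06). The fold rests on 26 to 65 counts in the wild-type livers. Over the 19 alternatives the log2 fold change ran from 3.29 to 5.51. Ndrg3 LKO liver 5 was the lowest of the knockout livers and still far above every wild-type liver. *Abcd3*, whose product takes up branched chains and bile acid intermediates, was at 647 to 978 CPM in wild-type and 485 to 780 CPM in Ndrg3 LKO livers and did not pass (log2 fold change -0.34, edgeR adjusted p = 0.121). Per kilobase of exon, *Abcd2* made up 0.117% to 0.340% of the sum of both genes in wild-type livers and 5.5% to 9.45% in Ndrg3 LKO livers, so *Abcd3* remained the more abundant in every liver.

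**Figure D3:**
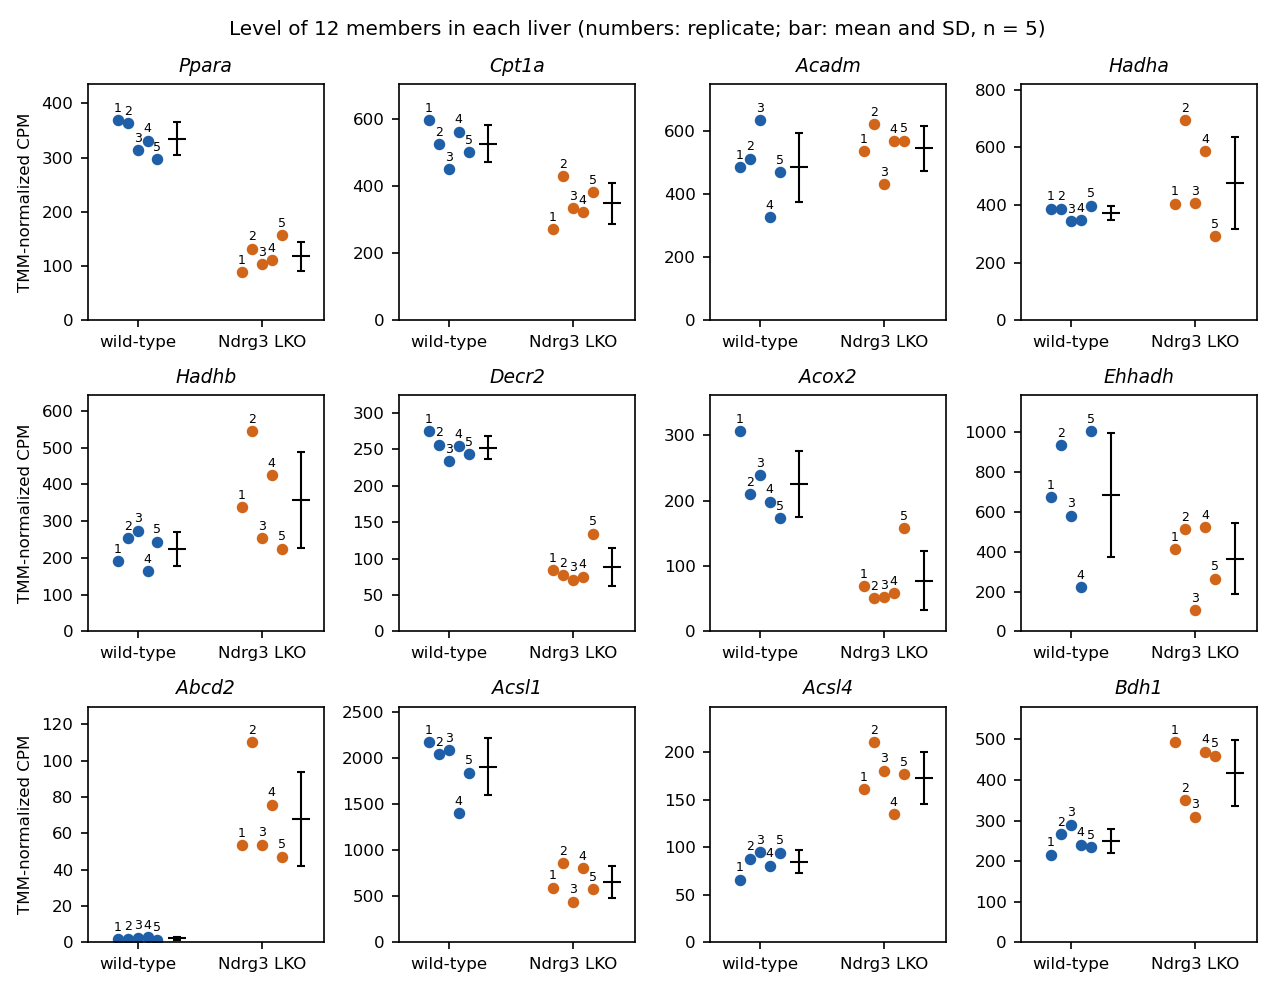
TMM-normalized CPM (y axes) of 12 members in each wild-type and Ndrg3 LKO liver, with replicate numbers beside the points and bars for the mean and SD (n = 5). *Ppara*, *Cpt1a*, *Decr2*, *Acox2* and *Acsl1* are lower and *Abcd2*, *Acsl4* and *Bdh1* higher in all 5 Ndrg3 LKO livers, while *Acadm*, *Hadha*, *Hadhb* and *Ehhadh* overlap.

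Taking the mitochondrial genes as a list, 1 of 17 was higher and 2 lower, 12 log2 fold changes were positive and 5 negative, and their median was 0.17. Of the 9 peroxisomal genes 1 was higher (*Abcd2*) and 3 lower (*Acox2*, *Decr2* and *Acaa1a*), 2 were positive and 7 negative, and the median was -0.69. Of all genes tested 25.6% were higher and 23.0% lower with a median of 0.031, so the mitochondrial list lay a little above it and the peroxisomal list below it. Without wild-type liver 4 the mitochondrial median was 0.040 beside 0.050 for all genes, so that list then lay just below. Without Ndrg3 LKO liver 4 these values were 0.040 and 0.031. Without Ndrg3 LKO liver 5 the medians were 0.14 and -0.79, with 3 higher and 4 lower among the mitochondrial and 1 higher and 5 lower among the peroxisomal genes, beside 28.4% and 27.2% of all genes. With unadjusted library sizes the medians were 0.70 and -0.18, beside 0.56 for all genes, and on quantile-normalized values they were 0.45 and -0.39, so the signs held while the distance from 0 did not.

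The same contrast was taken within each liver, as the median log2 ratio of the genes to their wild-type mean. Wild-type values thus centre near 0 by construction, and only their spread is informative. The mitochondrial median was -0.032, 0.073, 0.18, -0.32 and 0.090 in wild-type livers 1 to 5 and 0.14, 0.19, -0.20, 0.47 and -0.011 in Ndrg3 LKO livers 1 to 5, and these ranges overlapped. The peroxisomal median was -0.021, 0.089, 0.085, -0.32 and 0.16 in wild-type and -0.59, -0.41, -1.12, -0.38 and -0.42 in Ndrg3 LKO livers. With TMM every knockout liver was below every wild-type liver on this measure. The closest were Ndrg3 LKO liver 4 at -0.38 and wild-type liver 4 at -0.32. This median moves with the scaling factor of a library. The TMM factors were 0.805 to 0.917 in wild-type and 0.904 to 1.36 in Ndrg3 LKO livers. The separation therefore cannot be taken to hold without TMM. The mitochondrial minus the peroxisomal median was -0.011, -0.016, 0.099, 0.0011 and -0.070 in wild-type livers and 0.73, 0.60, 0.91, 0.85 and 0.41 in Ndrg3 LKO livers. This difference is taken within a library, where a scaling factor largely cancels, and liver 5 had the smallest value among the knockouts. From the fitted fold changes the distance between the medians was 0.86, and it lay between 0.74 and 0.93 over all alternatives. No test was made over the genes of a list, which are not replicates.

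**Figure D4:**
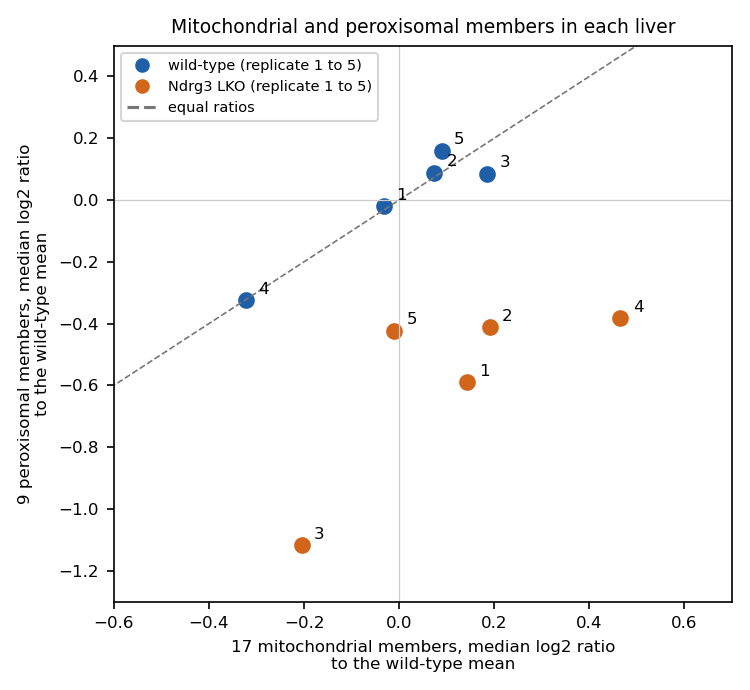
Median log2 ratio to the wild-type mean of the 9 peroxisomal members (y axis) against that of the 17 mitochondrial members (x axis), 1 point per liver with its replicate number and a dashed line where both are equal. Wild-type livers, which centre near 0 by construction, lie along the line, with wild-type liver 4 lowest at -0.32 on both axes. All 5 Ndrg3 LKO livers lie below the line by 0.41 to 0.91.

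Of the 3 genes whose enzymes work in both compartments, *Eci2* fell and the other 2 did not pass. *Ech1*, a dienoyl-CoA isomerase, was at 480, 475, 507, 360 and 503 CPM in wild-type livers and 559, 636, 350, 863 and 422 CPM in Ndrg3 LKO livers, a log2 fold change of 0.28 (SE 0.229, edgeR adjusted p = 0.325). On unadjusted library sizes *Ech1* was called higher at 0.84. *Eci2*, an enoyl-CoA isomerase, went from 330 to 470 CPM to 198 to 395 CPM, a log2 fold change of -0.52 (SE 0.200, edgeR adjusted p = 0.0485). Without Ndrg3 LKO liver 5 it was -0.45 (edgeR adjusted p = 0.0672). That call was held in 8 of 19 alternatives, and it was lost without any 1 of wild-type livers 1, 2, 3 and 5 and Ndrg3 LKO livers 1, 3 and 5. *Crat*, carnitine acetyltransferase, was at 45.0 to 111 CPM and 54.0 to 159 CPM (log2 fold change 0.10).

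The thioesterases split acyl-CoA back into free acid and coenzyme A, *Acot1* in the cytosol, *Acot2* in mitochondria and *Acot3* and *Acot4* in peroxisomes. *Acot2* was at 12.9, 14.7, 10.8, 3.45 and 19.6 CPM in wild-type livers and 44.8, 133, 21.5, 101 and 10.6 CPM in Ndrg3 LKO livers. The rise was 5.07-fold with a wide error (log2 fold change 2.34, SE 0.636, edgeR adjusted p = 0.00987), and the SE was 0.522 without Ndrg3 LKO liver 5. Ndrg3 LKO livers 1 to 4 lay above every wild-type liver and liver 5 within their range. *Acot1*, *Acot3* and *Acot4* did not pass, with log2 fold changes of -0.37, -0.63 and 0.04. All 4 thioesterases were lowest among the wild-type livers in liver 4, where *Acot1* was at 49.9 CPM against 214 to 280 CPM in the other 4 livers. Ndrg3 LKO liver 3 was the lowest knockout liver for 3 of them, with *Acot1* at 37.4 CPM. Within a liver the ratio of *Acot2* to *Acot1* CPM was 0.0385 to 0.0814 in wild-type and 0.171 to 0.60 in Ndrg3 LKO livers, with no overlap. These genes lie side by side on chromosome 12. Of the 100-base stretches of *Acot1* 32.5%, and of those of *Acot2* 17.1%, occurred in a neighbour, so their separate counts are uncertain.

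*Bdh1*, the mitochondrial enzyme that interconverts acetoacetate and β-hydroxybutyrate, was higher in every Ndrg3 LKO liver. It was at 216, 266, 290, 241 and 235 CPM in wild-type livers 1 to 5 and 492, 349, 309, 470 and 460 CPM in Ndrg3 LKO livers 1 to 5. The mean rose from 250 ± 28.7 to 416 ± 81.2 CPM (SD, n = 5; log2 fold change 0.74, SE 0.165, edgeR adjusted p = 0.0034). Ndrg3 LKO liver 3 came closest to the wild-type livers, and liver 5 lay among the higher knockout livers. *Bdh1* overlaps the gene *Gm15743* on the opposite strand, one of 14 members with such a neighbour, and the strand setting of the counting was not given.

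Compared per kilobase of exon, *Acaa2* was the most abundant member in both groups, at a mean of 1039 CPM per kilobase in wild-type and 1092 in Ndrg3 LKO livers. *Acaa1b* (676), *Etfb* (560), *Acadvl* (275) and *Etfa* (262) followed in wild-type livers, and *Etfb* (731), *Acaa1b* (399), *Acadvl* (357) and *Etfa* (270) in Ndrg3 LKO livers. This order rests on the length of all annotated exons, 9449 bases for *Acsl1*, and another choice of length could change it. By these exon lengths *Acsl1* went from rank 9 to 24 of 39, *Ehhadh* from 6 to 14, *Decr2* from 21 to 30 and *Ppara* from 24 to 32. *Bdh1* moved up from rank 27 to 18. *Abcd2*, for all its rise, went only from rank 39 to 38, at 0.394 and 12.3 CPM per kilobase.

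The livers of a group also differed among themselves. Wild-type liver 4 was the lowest wild-type liver for 31 of 39 members (79.5%), beside 25.5% of all genes tested. Wild-type liver 3 was the highest for 21 members (53.8%), beside 21.9% of all genes. Among Ndrg3 LKO livers, liver 3 was the lowest for 25 members (64.1%), beside 15.7% of all genes. This ran across compartments, as wild-type liver 4 was lowest for 15 of 17 mitochondrial and 6 of 9 peroxisomal members, and Ndrg3 LKO liver 3 for 10 and 6.

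**Figure D5:**
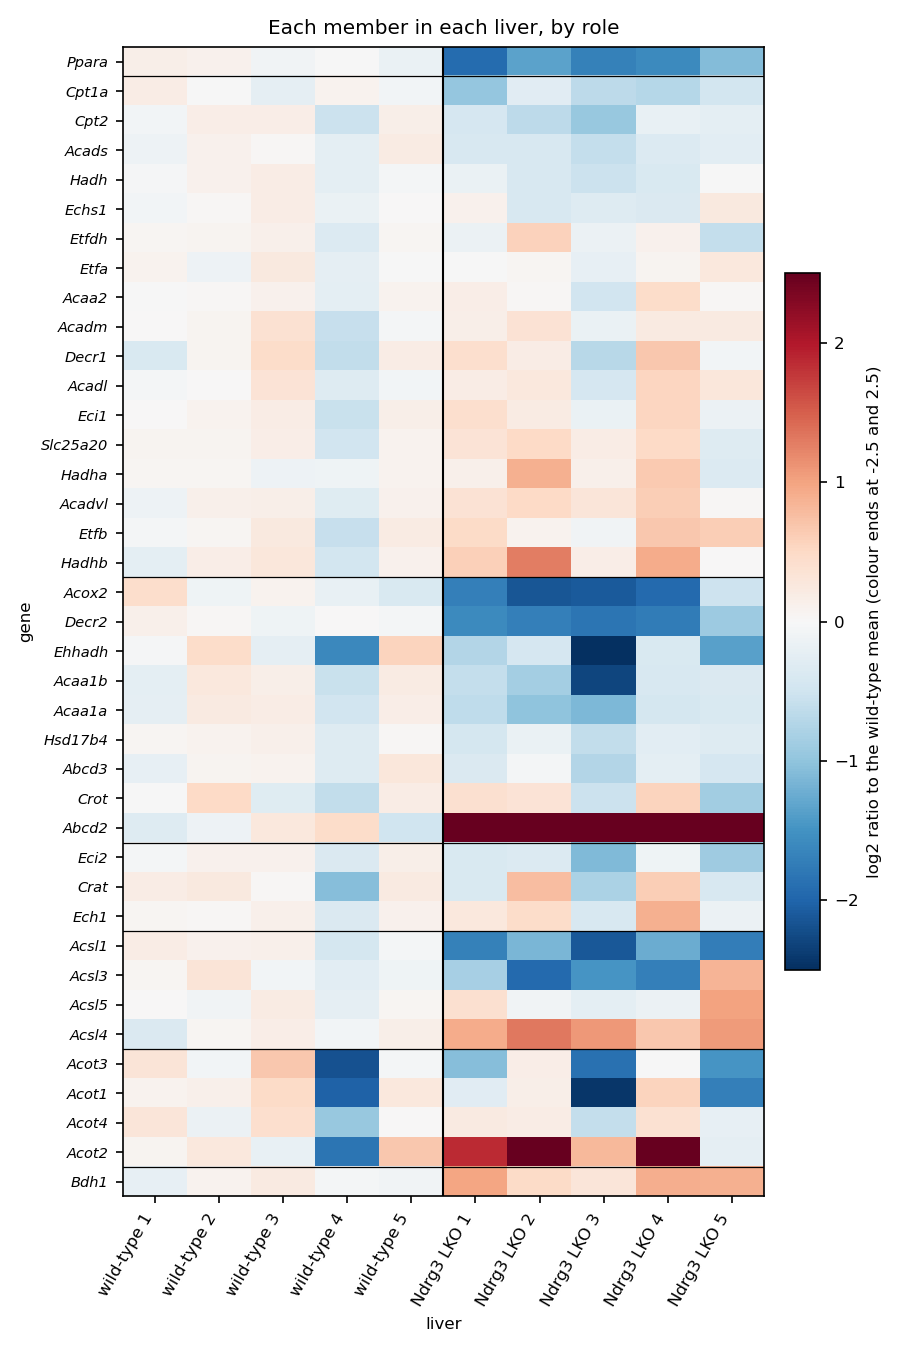
Log2 ratio to the wild-type mean (colour, ending at -2.5 and 2.5) of each of the 39 members (rows, by role) in each of the 10 livers (columns). Wild-type liver 4 and Ndrg3 LKO liver 3 are bluer than the rest of their groups across roles, and Ndrg3 LKO liver 5 is paler than its group for *Acox2* and *Decr2*.

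Other genes listed with fatty acid oxidation, outside the 39, were mostly lower. Not all of them encode enzymes of the oxidation itself, among them *Acacb* (log2 fold change -1.44, called lower). Of 28 listed 27 could be tested, and 18 were lower and 1 higher, with a median log2 fold change of -0.77, or 19 lower and 1 higher without Ndrg3 LKO liver 5. *Nudt7*, which encodes a peroxisomal coenzyme A hydrolase, had the largest fall with all 10 livers, from 339 to 1198 CPM in wild-type to 67.3 to 310 CPM in Ndrg3 LKO livers (log2 fold change -2.19, SE 0.434, edgeR adjusted p = 0.00172). Without Ndrg3 LKO liver 5 it was -2.28, and *Pecr* (-2.49), *Phyh* (-2.48) and *Acadsb* (-2.44) fell further. Falls were not confined to peroxisomal enzymes, since the mitochondrial genes *Acadsb* (-1.94), *Hsd17b10* (-1.41) and *Acad10* (-0.77), named with *Pecr* and *Phyh* after their values were seen, were also called lower with all livers. *Acot13*, a mitochondrial thioesterase gene, rose from 42.0 to 53.7 CPM to 71.2 to 104 CPM (log2 fold change 0.75, edgeR adjusted p = 0.0011). Neither *Nudt7* nor *Acot13* overlapped between groups. Of 16 peroxins, which build and divide peroxisomes, 5 were lower and 1 higher with a median of -0.0077 (6 and 2 without Ndrg3 LKO liver 5). *Pex11a*, which acts in peroxisome division, fell from 50.2 to 88.1 CPM to 12.7 to 43.8 CPM (log2 fold change -1.48, edgeR adjusted p = 0.00137), and *Pex14*, part of the import machinery, was higher by 0.39 (edgeR adjusted p = 0.0311). Of 17 citric acid cycle genes, which take up the acetyl-CoA that oxidation yields, 6 were higher and 2 lower with a median of 0.19 (7 and 3 without Ndrg3 LKO liver 5). *Mdh2*, mitochondrial malate dehydrogenase, rose from 332 to 414 CPM to 750 to 1792 CPM (log2 fold change 1.83, edgeR adjusted p = 9.78e-05), and *Suclg1*, a succinyl-CoA ligase subunit, was lower by -0.51 (edgeR adjusted p = 0.0177). Over all genes tested 25.6% were higher and 23.0% lower, or 28.4% and 27.2% without Ndrg3 LKO liver 5.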

How the data were processed

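RNA from 10 livers, 5 wild-type and 5 Ndrg3 LKO, was sequenced by the authors as stranded mRNA libraries with paired-end reads of 100 bases, and the reads were mapped to mm9 and counted per gene with STAR. The methods name STAR 2.5.1, while the submitters' processing notes list bcl2fastq, Trim Galore 0.6.4, STAR 2.7.3a and Cufflinks 2.2.1. The annotation and the strand setting of the counting are not given in the sources used here. The deposited values are whole-number counts per gene symbol that differ in total between livers, although the files are named CPM, and were used as raw counts.

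The filter kept genes that reached 1 CPM in 5 or more livers, or in 4 or more where a liver was left out. edgeR's quasi-likelihood test with TMM (R 4.3.3, edgeR 4.0.16) compared the groups over all genes tested, with Benjamini-Hochberg adjustment at 0.05 and no covariates. The standard error of a log2 fold change was derived from its F statistic. CPM values are TMM-normalized, and values per kilobase use the summed exon length of the GENCODE annotation of mm9. Alternatives were other scalings, filters and pseudocounts (1 and 5), limma 3.58.1, DESeq2 1.42.0, an absolute log2 fold change above 1, each liver left out and the replicate number as a block. In a simulation that changed 200 of 11208 genes, edgeR recovered 194 with 10 false calls (94 of those changed 2-fold and all 100 changed 4-fold). It gave every gene the same spread between livers, equal numbers of rises and falls, and no liver apart from its group. In the data 5443 genes were called and the scale differed between groups, so these rates do not carry over to the calls above.

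Replicate numbers run from 1 to 5 in each group, and only these labels offer a pairing. No pair of livers within a group agreed within sampling noise. With 1 library per liver, p-values measure the spread between livers. Counting error alone is small at most of these counts, and without molecular identifiers reads cannot be taken as separate molecules.

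The members and lists were chosen with earlier results of these data known. Values in every liver are given for 13 members set by name and for the called members with the 5 largest rises and 5 largest falls, and the gene with the largest rise and fall is named from each other list. Other members are given as ranges or fold changes. Lists are hepatocyte, Kupffer cell, stellate cell, endothelial, cholangiocyte, lymphocyte, neutrophil and adipocyte markers, other fatty acid oxidation genes, peroxins, citric acid cycle genes and PPARα partners. They are described by counts and medians, with no test over the list. Some results on genes of the pathway are not reported here.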

Additional observations from a re-analysis of the deposited data

Results flagged for a closer look

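Within each group of 5 livers, the highest and lowest value of each member was compared with the rest by Dixon's criterion, whose 95% critical value for 5 values is 0.71. Of the 78 groups, 9 had such a value, where chance gives about 1 in 20. In 6 of them wild-type liver 4 was far below the other wild-type livers, for *Slc25a20* (163 CPM), *Etfdh* (243 CPM), *Hsd17b4* (498 CPM), *Ech1* (360 CPM), *Crat* (45.0 CPM) and *Acot1* (49.9 CPM). In the other 3 Ndrg3 LKO liver 5 was far above the other knockout livers, for *Acox2* (158 CPM), *Decr2* (134 CPM) and *Acsl3* (34.3 CPM). The members are measured in the same livers, so these flags are not independent of each other.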

How the results depend on the processing

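With unadjusted library sizes 18 members were higher and 4 lower, and the mitochondrial and peroxisomal medians were 0.70 and -0.18; with quantile-normalized limma 13 were higher and 5 lower, and the medians were 0.45 and -0.39. Requiring an absolute log2 fold change above 1 left 3 higher and 4 lower. With the replicate number as a block 3 were higher and 6 lower, since *Acads*, *Hadhb*, *Eci2* and *Acot2* lost their calls, and over all genes 4412 were called against 5443, 4332 of them shared. Same-numbered livers did not deviate together (correlations of -0.36 to 0.036), and 0 of 5 wild-type livers correlated best with their own number. With 1 liver left out, 4 to 7 members were higher and 6 to 12 lower. The medians were then 0.040 to 0.24 and -0.80 to -0.54, beside 0.014 to 0.050 for all genes. DESeq2 called 6 higher and 11 lower, with *Acadvl* added to the higher and *Cpt2*, *Acaa1b* and *Hsd17b4* to the lower genes.

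Signs turned with unadjusted library sizes for *Cpt2* (0.059), *Acads* (0.12), *Hadh* (0.22), *Echs1* (0.37), *Hsd17b4* (0.18), *Abcd3* (0.20), *Eci2* (0.032) and *Acot1* (0.24), and with quantile normalization for *Echs1* (0.13) and *Abcd3* (0.0082). *Etfdh*, at 0.01, turned without a filter (-0.024), in limma (-0.032 and -0.031 for pseudocounts of 1 and 5) and under the block (-0.032). With 1 liver left out, values on both sides of 0 were found for *Acaa2* (lowest -0.045), *Etfa* (-0.030 to 0.10), *Etfdh* (-0.17 to 0.11), *Crot* (-0.068 to 0.23), *Crat* (-0.13 to 0.26), *Acsl5* (lowest -0.011) and *Acot4* (-0.14 to 0.16), none of which had been called. The cause of these changes was not tested. All members passed the filter on low counts, but 2 had under 100 counts in at least 1 liver. These were *Abcd2*, with 26 to 65 counts in wild-type livers, and *Acot2*, with 75 in wild-type liver 4.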
